A study of Gallus gallus with 8 samples.

Results

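The genes described here had a lower mean RNA level at 1 µg/ml of DAN than without it, in cultured chicken neural crest cells. At 10 µg/ml their mean level was about the same as at 1 µg/ml. They were chosen on the deposited RPKM values (reads scaled to gene length and library size), averaged over the libraries of each group. A gene was kept where the untreated mean was at least 1 RPKM, the mean at 1 µg/ml was at most 0.5 of it, the mean at 10 µg/ml was at least 0.1 RPKM, the ratio of the mean at 10 to that at 1 µg/ml lay between 0.8 and the reciprocal of 0.8, and all 6 libraries with DAN lay below both untreated ones. Of the 17108 genes in the table, 193 met the rule. The rule used all 3 comparisons between the groups, so the lower levels with DAN and the likeness of the doses describe the choice and carry no test.

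The cells were migratory cranial neural crest cells of Gallus gallus, which had left neural tube pieces spanning rhombomeres 3 to 5, taken at Hamburger and Hamilton stage 8 and cultured overnight on fibronectin and poly-D-lysine. The groups were untreated cells (0 µg/ml, 2 libraries, replicates 2 and 3), cells with 1 µg/ml of DAN/NBL1 protein (3 libraries) and cells with 10 µg/ml (3 libraries). An untreated replicate 1 was not among the 8 libraries. All came from leghorn chicken embryos, with no genotype given. The labels give 200 to 1000 adherent cells per sample, left after the tubes and ectoderm had been lifted off. Total counts ran from 44338765 to 199084828 per library, and the counts of the untreated pair differed by a chi-square of 359.9 per degree of freedom, where pairs within a dose gave 71.9 to 156.

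Neural crest cells arise at the dorsal edge of the neural tube of the embryo, leave it and migrate to form, among other tissues, cranial ganglia and facial skeleton. DAN, encoded by NBL1, is a secreted protein that binds bone morphogenetic proteins and so keeps them from their receptors. Bone morphogenetic protein signalling acts in the induction of the crest and in its departure from the tube.

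The files give Ensembl IDs without symbols, and 0 of the 17108 IDs matched the reference table used here, so no role can be stated for any of the 193 genes. For the same reason the neural crest label was not checked against marker genes, no markers of neural tube, ectoderm, mesoderm, endothelium or blood could be read, and fewer cells of a type cannot be told apart from less RNA per cell in these bulk libraries. No sequence is shown.

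Among genes with an untreated mean of at least 1 RPKM (9644 genes), 674 had at most 0.5 of that mean at 1 µg/ml, and 505 of these lay below both untreated libraries in all 6 libraries with DAN. Over all 14085 genes tested, 14.9% lay so. With at least 0.1 RPKM at 10 µg/ml, 498 remained. These 498 genes went on in 3 ways at the higher dose. The 193 genes described here (38.8%) had a ratio between the doses inside the window, 252 (50.6%) stood lower again at 10 µg/ml with a ratio of at most 0.8, and 53 (10.6%) stood higher at 10 than at 1 µg/ml with a ratio above the window. Genes of the opposite direction were taken with the same floor on the untreated mean and at least 2-fold higher means at 1 µg/ml. All 6 libraries with DAN lay above both untreated ones. They numbered 211, of which 129 (61.1%) had a ratio between the doses inside the window. The shares inside the window, 38.8% of the lower genes and 61.1% of the higher ones, were not tested against each other. They are not like for like, since the ratio between the doses was read at unlike levels. Inside the window the median at 1 µg/ml was 39.4% of the untreated mean in the lower genes and 226% in the higher ones. The median untreated means were 3.62 and 3.41 RPKM.

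**Figure D1:**
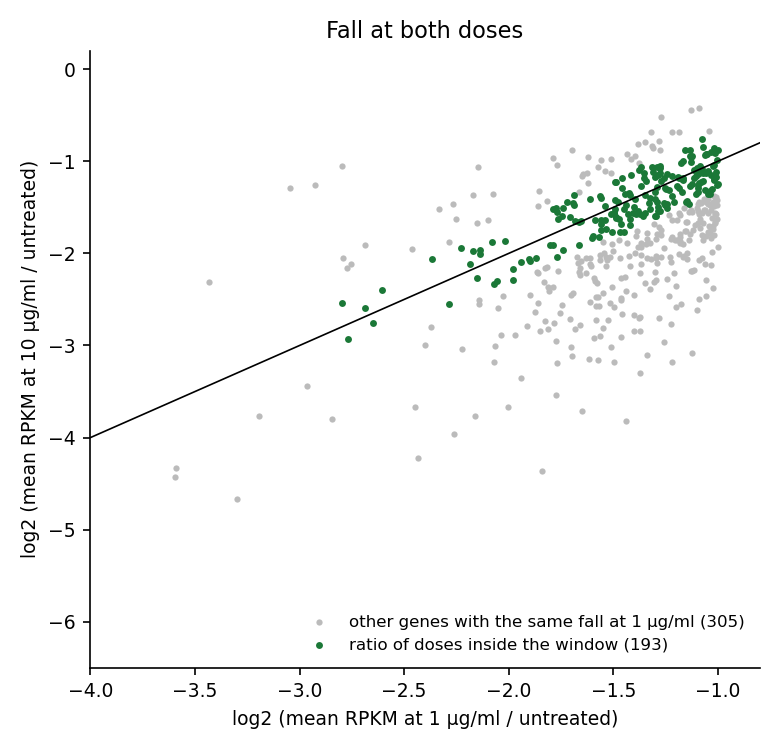
Each point is 1 of the 498 genes with at most 0.5 of the untreated mean at 1 µg/ml; the x axis is the log2 ratio of the mean RPKM at 1 µg/ml to untreated and the y axis the same at 10 µg/ml, with a line where both are equal. The 193 genes (green) lie along the line because the rule placed them there. Of the other 305 (grey), 252 lie below it and 53 above. Among these 53, ENSGALG00000000951, with log2 ratios of -6.61 at 1 µg/ml and -1.86 at 10 µg/ml, lies outside the drawn range.

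The thresholds cut through a continuous range. The gene nearest to the limit of 0.5 for the lower dose had a ratio of 0.4999 inside and 0.5017 outside. At the lower limit for the ratio between the doses the nearest values were 0.8001 inside and 0.797 outside, and at the upper limit 1.246 inside and 1.255 outside. The untreated mean was 1.01 RPKM in the lowest gene kept and 0.998 RPKM in the highest one left out by that limit alone.

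Most of the 193 genes were of low abundance. Their untreated means ran from 1.01 to 1853 RPKM with a median of 3.62 RPKM, against 9.26 RPKM for all 9644 genes of at least 1 RPKM. Low abundance was not particular to them. The median was 4.06 RPKM in the 252 genes that stood lower again at 10 µg/ml. It was 2.24 RPKM in the 53 that stood higher there, and 3.41 RPKM in the 129 raised genes. Of the 193 genes, 47 stood from 1 to below 2 RPKM and 100 from 2 to below 10 RPKM. Another 38 stood from 10 to below 100 RPKM and 8 at 100 RPKM or more. The median level was 1.45 RPKM at 1 µg/ml and 1.46 RPKM at 10 µg/ml. The lowest count of a gene in any library had a median of 134 over the 193 genes and was 1 in the least covered of them. Reads of amplified cDNA without molecular identifiers are not independent molecules.

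The 193 genes together held about 1% of the counts or less. The share was 1.08% and 0.844% of the counts in the untreated libraries, 0.430%, 0.446% and 0.352% at 1 µg/ml, and 0.288%, 0.437% and 0.431% at 10 µg/ml. The lower untreated library stood above every library with DAN, as the rule placed each gene, so nothing is read from that. The lowest share was that of replicate 1 at 10 µg/ml. The 3 most abundant genes, at 1853, 1124 and 919 RPKM in untreated cells, made up 53.5% to 63.4% of these counts. Their Ensembl ID numbers lie within 23 of each other, and 5 of the 193 genes, 4 of them among the 8 at 100 RPKM or more, lie within 100 of the number of the most abundant one. The files give no positions, so whether these genes lie together in the genome or share reads was not tested, and the 3 may not be independent measurements. Without them the share was 0.501% and 0.327% in untreated cells and 0.128% to 0.180% in the libraries with DAN.

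At 1 µg/ml a median of 39.4% of the untreated mean was left, with 17 genes at 25% or less, 83 from there to 40% and 93 from there to 50%. The means were 2.54-fold lower at the median, from 2.00-fold to 6.94-fold. At 10 µg/ml a median of 37.8% was left, and the means were 2.64-fold lower at the median, from 1.69-fold to 7.60-fold. In 178 of the genes the mean at 10 µg/ml was also at most 0.5 of the untreated mean, and in the other 15 it lay above that. At 1 µg/ml a median of 43.6% was left in the 8 genes of 100 RPKM or more and 38.7% in the 47 genes below 2 RPKM.

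**Figure D2:**
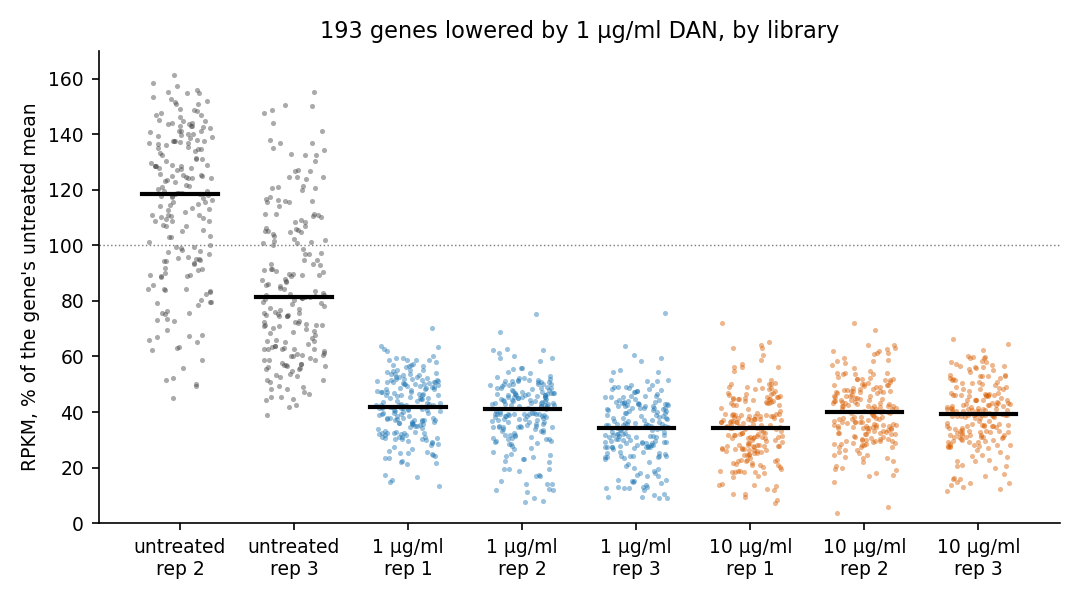
Each point is 1 of the 193 genes in 1 library, as a percentage of that gene's mean RPKM in the 2 untreated libraries; black bars are medians. The medians are 118% and 81.5% in the untreated libraries, and 34.3% to 41.8% in the 6 libraries with DAN. The untreated pair stands apart and the doses stand close together because the rule chose such genes.

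Read library by library, the 193 genes had a median of 118% of their untreated mean in untreated replicate 2 and 81.5% in untreated replicate 3. At 1 µg/ml the medians were 41.8%, 40.9% and 34.3% in replicates 1, 2 and 3. At 10 µg/ml they were 34.3%, 39.9% and 39.3%. Replicate 3 at 1 µg/ml and replicate 1 at 10 µg/ml were thus the lowest libraries of their doses, and their medians were equal to 3 digits. Replicate 3 was the highest of the 3 libraries at 1 µg/ml in 13.5% of the 193 genes and in 36.7% of all genes of at least 1 RPKM. Replicate 1 was the highest at 10 µg/ml in 16.1% of the 193 genes and in 35.0% of all such genes. The library most often highest was replicate 1 at 1 µg/ml (49.2%, against 32.3% of all such genes). At 10 µg/ml it was replicate 2 (45.6%, against 34.8%). The rule used these values, so nothing is read from the order of the libraries.

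The gene with the highest untreated level was ENSGALG00000018382, with a length of 975 bases as counted by the authors. It stood at 1701 and 2005 RPKM in untreated replicates 2 and 3. At 1 µg/ml it stood at 894, 919 and 802 RPKM, and at 10 µg/ml at 512, 1099 and 1080 RPKM. The groups with DAN did not overlap the untreated one, while at 10 µg/ml replicate 1 lay below every other library and the other two lay above all 3 libraries at 1 µg/ml. Its means were 1853 ± 215 RPKM (SD, n = 2) untreated, 872 ± 61.4 RPKM (SD, n = 3) at 1 µg/ml and 897 ± 333 RPKM (SD, n = 3) at 10 µg/ml. The means with DAN were 2.13-fold and 2.07-fold lower. The log2 fold change between the doses was 0.04 with a standard error of 0.26, and without replicate 1 at 10 µg/ml it was 0.33.

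The gene with the smallest share left at 1 µg/ml was ENSGALG00000023296, with a length of 767 bases. It stood at 5.36 and 3.19 RPKM in untreated replicates 2 and 3, from 228 and 251 counts. At 1 µg/ml it stood at 0.958, 0.341 and 0.547 RPKM, from 154, 19 and 34 counts. At 10 µg/ml it stood at 0.596, 0.845 and 0.761 RPKM, from 50, 28 and 43 counts. All 3 libraries at 10 µg/ml lay within the range of those at 1 µg/ml, and the lower untreated library was 3.33-fold above the highest library with DAN. Its means were 4.27 ± 1.54 RPKM (SD, n = 2) untreated, 0.615 ± 0.314 RPKM (SD, n = 3) at 1 µg/ml and 0.734 ± 0.127 RPKM (SD, n = 3) at 10 µg/ml. The means with DAN were 6.94-fold and 5.82-fold lower. Its log2 fold change at 1 µg/ml, -2.77 with a standard error of 0.47, was -2.36 without untreated replicate 2 and -3.26 without replicate 1 at 1 µg/ml.

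**Figure D3:**
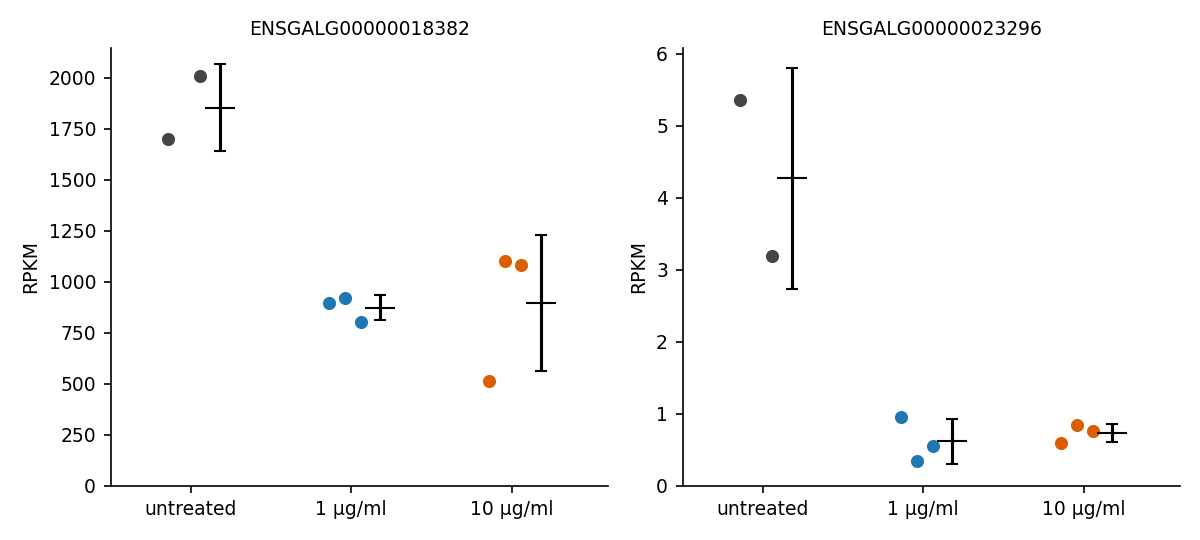
RPKM (linear axis from 0) of the most abundant of the 193 genes (left) and of the gene with the smallest share left at 1 µg/ml (right); points are libraries, and dashes with bars are means ± SD (2 untreated libraries, 3 per dose). On the left the libraries at 10 µg/ml spread from 512 to 1099 RPKM around the level at 1 µg/ml, and on the right all 6 libraries with DAN lie below 1 RPKM.

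The number of these genes called in the test across all genes is given for each dose. At 1 µg/ml, 45 of the 193 genes were called lower than untreated (edgeR's quasi-likelihood test, Benjamini-Hochberg adjusted p under 0.05), where 1.30% of the 14085 genes tested were called lower. At 10 µg/ml, 133 were called lower, where 9.13% of all genes were. The 45 genes were called at both doses. Since the rule picked genes that were lower in these libraries, both counts lie above the background by construction, and nothing is read from that. None was called higher at 1 µg/ml (0 of 193, where 1.51% of all genes were) or at 10 µg/ml (0 of 193, where 7.23% were), which the rule sets as well. The filter on low counts left out 1 of the 193 genes, with 1 to 10 counts per library. The median log2 fold change was -1.35 at 1 µg/ml and -1.41 at 10 µg/ml, against -0.03 and -0.02 over all genes tested. The 2 untreated libraries serve as reference for both doses.

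The share of the 193 genes called at 1 µg/ml was higher in the classes of higher abundance, and it is set beside the share of all genes tested that were called lower in the same class. Of the 47 genes below 2 RPKM, 3 were called at 1 µg/ml (0.701% of all genes in the class) and 24 at 10 µg/ml (9.33%). Of the 100 from 2 to below 10 RPKM, 19 were called at 1 µg/ml (1.59%) and 68 at 10 µg/ml (12.1%). Of the 38 from 10 to below 100 RPKM, 18 were called at 1 µg/ml (2.01%) and 33 at 10 µg/ml (12.6%). Of the 8 genes at 100 RPKM or more, the lower dose gave 5 calls (2.40%) and the higher 8 (10.3%). The differences between the classes were not tested. The standard error of the log2 fold change at 1 µg/ml had a median of 0.37 over the genes tested, and it ran from 0.14 to 0.81.

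The calls at the lower dose, in all genes tested as in these, rested on every library with DAN. All libraries enter the estimate of the spread. The 45 calls became 0 without any 1 of the 3 libraries at 1 µg/ml, where 0% of all genes were called lower. They became 0 without replicate 1 or 3 at 10 µg/ml, where 0% were, and 1 without replicate 2 at 10 µg/ml, where 0.0213% were. Without untreated replicate 2 they became 47, where 3.52% of all genes were called lower. Without untreated replicate 3 they became 137, where 10.5% were. The 133 calls at 10 µg/ml became 29, 72 and 54 without replicates 1, 2 and 3 at that dose, where 2.21%, 6.04% and 3.96% of all genes were called lower, and 66 without untreated replicate 2, where 7.64% were. Without untreated replicate 3 the calls at 10 µg/ml rose, and so did the share of all genes called lower. DESeq2 called 164 of the 193 genes lower at 1 µg/ml and 173 at 10 µg/ml. It called 7.65% and 13.9% of all genes lower. Voom with quality weights called 0 and 21 of them, against 0% and 1.52% of all genes. The fit with a replicate block called 0 and 66, against 0.00710% and 4.64% of all genes.

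Between the doses, edgeR called none of the 193 genes at 10 against 1 µg/ml (0 of 193), where 0% of the 14085 genes were called. DESeq2 also called 0 of the 193 in either direction. It called 1.09% of all genes lower, and the share it called higher was not counted. At an unadjusted p under 0.05 there were 0 among the 193 genes and 1605 among all genes tested, and the rule's window keeps the first number low. The mean was lower at 10 than at 1 µg/ml in 112 genes and higher in 81, and in 86 the ratio lay between 0.9 and 1.1. The RPKM ranges of the doses overlapped in 185 genes. In 4 genes all libraries at 10 µg/ml lay below those at 1 µg/ml, where 14.1% of all genes tested did, and in 4 genes all lay above, where 12.3% did. The window used the same means, so nothing is read from these counts. The median log2 fold change was -0.05, against -0.02 over all genes tested. It was 0.03 without replicate 1 at 1 µg/ml, 0.02 without replicate 1 at 10 µg/ml, and -0.15 on total-count scaling, which gave -0.11 over all genes, so it has no settled sign.

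That the doses act alike on these genes is not shown by these values. The 95% interval of the log2 fold change between the doses had a median half-width of 0.75, a factor of 1.68 either way, and it ran from 0.28 to 1.71 over the 192 genes tested. The window of the rule is 0.32 either way. In none of the 192 genes (0) did the interval lie inside the window. In 42 genes it held a ratio of 0.5, and in 43 a ratio of 2.

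**Figure D4:**
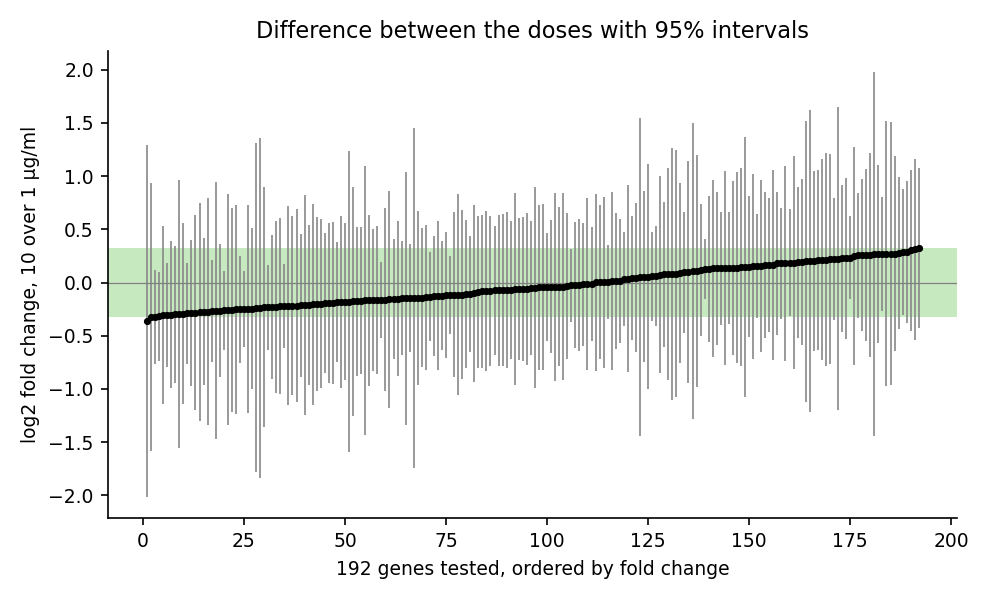
Log2 fold change of 10 over 1 µg/ml for the 192 genes tested, ordered by that value on the x axis; points are edgeR estimates, grey lines 95% intervals and the green band the rule's window of 0.32 either way. The points stay in or near the band by choice, and every interval reaches beyond it.

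The untreated libraries stood apart from each other in these genes. The median difference between them, in either direction, was 0.74 on the log2 RPKM scale for the 193 genes. It was 0.66 for the 252 genes that stood lower again at 10 µg/ml, and 0.50 for all 9644 genes of at least 1 RPKM. The rule used both untreated values, through their mean and the lower of them. Nothing is read from the size or direction of this gap in the chosen genes. Replicate 2 was the higher one in 131 genes (67.9%) and replicate 3 in 62, where replicate 2 was higher in 45.1% of all such genes; these shares were not tested against each other. Replicate 2 was at least 2-fold above replicate 3 in 58 genes, and replicate 3 at least 2-fold above replicate 2 in 12. The share of all genes with such a gap was not counted, so nothing is read from these 2 counts. The 193 genes were also less abundant, with a median of 3.62 against 9.26 RPKM, and the sets were not matched for that.

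How far the genes stood below untreated cells depended on which untreated library was the reference. Against untreated replicate 2 alone, the mean at 1 µg/ml was at most 0.5 of it in 165 of the 193 genes, and against untreated replicate 3 alone in 110. Against the lower of the untreated values of each gene it was at most 0.5 in 82. The lower untreated value was a median of 1.47 times the highest of the 6 values with DAN, from 1.0004 to 3.76 times. It was at least 1.5 times in 87 genes and at least 2 times in 17, and in 23 genes the gap was under 1.1 times. All 17 genes with at most 25% left at 1 µg/ml were at most 0.5 of the lower untreated value too, as were 45 of the 83 genes between 25% and 40% and 20 of the 93 genes between 40% and 50%.

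The rule itself gave other genes when a library was left out. Without untreated replicate 3 it found 511 genes, 161 of them among the 193. Without untreated replicate 2 it found 238, of which 106 were among the 193. Leaving out 1 library with DAN gave 171 to 245 genes, with 132 to 163 of the 193 among them.

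Gene length, which entered the rule only through the RPKM values, moved with the difference between the untreated libraries. The 193 genes had a median length of 1869 bases, from 70 to 9083 bases, with quartiles at 917 and 3237 bases. The median was 1963 bases for all genes of at least 1 RPKM. Which of the 193 genes give messenger RNA was not checked, as the IDs had no symbols. The 131 genes that were higher in untreated replicate 2 had a median of 2392 bases and the 62 that were higher in replicate 3 a median of 1152 bases. Genes shorter than 1000 bases made up 24 of the 131 and 28 of the 62. Over all genes of at least 1 RPKM the same trend was present: the median log2 ratio of replicate 2 to replicate 3 rose from -0.49 in the shortest decile to 0.34 in the longest. Above the median ratio of their own length decile lay 72 of the 90 genes of at least 2000 bases and 76 of the 103 shorter ones. That median splits all genes of a decile evenly. The rule used both untreated values, so nothing is read from these counts. At 1 µg/ml all genes of at least 1 RPKM had a median of 90.8%, 85.5% and 93.4% of their untreated mean in the 3 shortest deciles. That median was 97.0% in the fourth and 101% to 109% in the longer ones. The part of these length trends in the lower levels of the 193 genes with DAN was not tested.

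**Figure D5:**
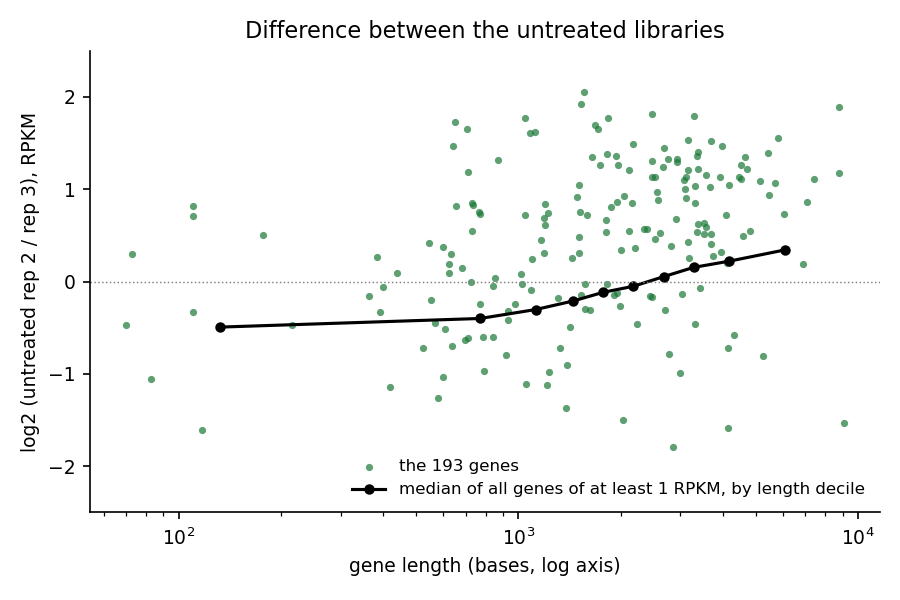
Log2 ratio of RPKM in untreated replicate 2 to replicate 3 (y axis) against gene length in bases (log x axis) for the 193 genes (green) and the median of all genes of at least 1 RPKM by length decile (black). The black line rises from -0.49 to 0.34. Above the median of their decile lie 72 of the 90 green points at 2000 bases or more and 76 of the 103 below. The rule used both untreated values, so nothing is read from these counts.

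Within each length decile of the genes of at least 1 RPKM, 13 to 31 of the 193 genes were found, or 1.35% to 3.22% of the decile. The second decile, with a median of 771 bases, held the highest share, and the deciles with medians of 2180 and 6113 bases held 13 genes each. That second decile was also the one where all genes were lowest at 1 µg/ml, at a median of 85.5% of untreated. The decile with a median of 3278 bases held 29 of the 193 genes (3.01%), and there all genes had a median of 105% of untreated. Whether the share found in a decile goes with that median was not tested. The genes that were lower at 1 µg/ml and lower again at 10 µg/ml had a median of 1285 bases, with 34.9% shorter than 1000 bases against 26.9% of the 193 genes and 21.3% of all genes of at least 1 RPKM. Of those 252 genes 66.3% were higher in untreated replicate 2, close to the 67.9% of the 193 genes. In the 129 genes raised at 1 µg/ml with a ratio between the doses inside the window, replicate 2 was the higher untreated library in 20.9%. These differences between sets were not tested. Each set was chosen on the untreated values, so nothing is read from the shares that were higher in replicate 2.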

How the data were processed

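RNA of 8 libraries was measured. Raw counts (whole reads per Ensembl ID) and RPKM values of the same genes are as the authors deposited them. The submitters' processing notes name the build galGal4 and the tools bedtools, edgeR 3.12.0, FastQC 0.10.1 and TopHat2 2.0.13, without saying what each did. The treatment of reads that map to several places is not stated, so values of genes with near-identical copies are uncertain. Per the labels' protocols, cDNA came from a low-input SMART-seq v4 kit, which uses no molecular identifiers and marks no strand, so overlapping genes on opposite strands cannot be told apart.

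The median ratio of counts to deposited RPKM over 5133 genes scaled between libraries as TMM-adjusted totals do, within 0.0035%. Lengths were taken from each gene's own ratio. Counts were fitted with edgeR 4.0.16 (R 4.3.3), as 1 quasi-likelihood model of all 8 libraries with TMM factors and no block. The filterByExpr minimum of 10 counts left 14085 genes. Tests were 2-sided. Standard errors are Wald errors of that fit. The script was checked on simulated counts. The labels speak of biological replicates. No 2 libraries of a group were alike within sampling noise, so each was counted as 1 sample; that says nothing of how the replicates were made. The alternatives were DESeq2 1.42.0, limma 3.58.1 (voom with quality weights; log2(RPKM + 1) and log2(RPKM + 0.1)), other scalings, filters and thresholds, a replicate block and each library left out.

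The genes, lists and tests were chosen with earlier results of these data known. The rule for named genes gave 2 IDs: the highest untreated mean and the lowest ratio at 1 µg/ml. The 14 gene lists were not used, since no ID had a symbol.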

Additional observations from a re-analysis of the deposited data

How the results depend on the processing

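Of the values above, no fold change against untreated turned its direction under any alternative run, and the count of calls between the doses was 0 throughout. The rule chose genes that were lower with DAN and alike at both doses. Both results thus follow largely from the choice, and nothing is read from them. The median between the doses, -0.05, ran from -0.12 to 0.03 with 1 library left out and was -0.15 on total-count scaling. The 45 calls at 1 µg/ml became 164 with DESeq2 and 0 with voom quality weights, with only the groups compared and with the replicate block; with 1 library left out they ran from 0 to 137. The 133 calls at 10 µg/ml became 61 with only the groups compared, 66 with the replicate block and 21 with voom quality weights, and ran from 29 to 142 with 1 library left out. With only the groups compared, 0% of all genes tested were called lower at 1 µg/ml and 4.28% at 10 µg/ml. With the replicate block these shares were 0.00710% and 4.64%, and with voom quality weights 0% and 1.52%. The 29 came without replicate 1 at 10 µg/ml, where 2.21% of all genes were called lower. The 103 came without replicate 3 at 1 µg/ml, where 7.25% were. With 1 library left out, the highest counts at 1 and at 10 µg/ml came without untreated replicate 3. The shares of all genes called lower were also highest there, so nothing is read from those counts. The quality weights were 0.334 and 0.329 for untreated libraries, against 1.02 to 2.35 with DAN. Where 1 untreated library is left, it is assumed to vary like the dosed ones. The median log2 fold changes of -1.35 and -1.41 became -0.91 and -0.91 on log2(RPKM + 1), where the pseudocount shrinks low genes by construction, and with 1 library left out ran from -1.56 to -1.12 and from -1.54 to -1.12. The number of genes found, 193, became 348 with a limit of 0.6 at 1 µg/ml and 86 with a ratio between doses of 0.9 to 1.1, by construction, and ran from 171 to 511 with 1 library left out. On total-count scaling the rule found 177 genes (148 shared) and on DESeq2 size factors 208 (191 shared). Total-count scaling moved the median of all genes at 10 µg/ml by -0.11 (log2). Apart from the pseudocount and the thresholds, the cause of these moves was not tested. Same-numbered libraries at the doses correlated in their deviations at 0.13, 0.18 and 0.06, each best with its own number. Same-numbered pairs with an untreated library gave 0.03 and 0.02 at 1 µg/ml, and 0.03 and -0.03 at 10 µg/ml. The labels do not say that a number marks a shared batch or day, so the main fit held no block. Whether the numbers pair the libraries is not settled by these values. With 2 untreated libraries and few counts in the lowest genes, differences near the limits are not resolved.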
